A study of Mus musculus with 10 samples.

Results

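Expression of 8 transcription factors that define intestinal epithelium, Cdx1, Cdx2, Hnf4a, Hnf4g, Gata4, Gata6, Klf5 and Maf, was followed across 4 sorted populations of mouse intestinal epithelial cells. They were taken as the probe sets whose only gene symbol is one of these 8, and each gene had 1 probe set, so they make up 8 of the 18820 genes tested. The study isolated intestinal epithelial cells from mice with an Lgr5-EGFP-ires-CreERT2 allele, in which green fluorescence follows the Lgr5 promoter, and a Ki67-TagRFP allele, in which red fluorescence is fused to the end of the endogenous Ki67 protein. Cells with high Lgr5 fluorescence were split into a Ki67-high and a Ki67-low fraction (2 arrays each), and cells with medium Lgr5 fluorescence likewise (4 arrays for Ki67-high, 2 for Ki67-low); all 4 groups carry both reporters. "High", "medium" and "low" are levels of reporter fluorescence, and cells without the Lgr5 reporter are not among the groups. The study's purpose was to compare fast and slow cycling crypt base columnar stem cells, which are the Lgr5-high fractions. The labels give no age, sex or intestinal region, no treatment, and no statement on whether each replicate is a different animal. The p-values therefore cover the variation among the arrays at hand, and this may be technical.

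CDX1 and CDX2 are caudal-type homeobox factors, and CDX2 keeps the intestinal epithelium from taking on a stomach-like fate. HNF4A and HNF4G are nuclear receptors that bind together at enterocyte genes, GATA4 and GATA6 are zinc finger factors of which GATA4 marks the upper small intestine, KLF5 is a zinc finger factor of proliferating crypt cells, and MAF is a basic leucine zipper factor of villus enterocytes. Most of these factors are known to act both in crypt stem cells and in their differentiated progeny.

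Maf was lower in Lgr5-high cells than in Lgr5-medium cells. It was the only one of the 8 factors that passed in the 7 comparisons of 1 sort marker at a time, their averages and the interaction. The difference was -0.77 on the log2 scale (1.7-fold) among Ki67-low cells and -0.61 (1.52-fold) on average over both Ki67 levels. Of all genes, 2.84% and 5.92% passed in these comparisons, in either direction. Hnf4g lay lower in all 4 Lgr5-high arrays than in any of the 6 Lgr5-medium arrays, at -0.33 on average, which missed the threshold (adjusted p = 0.0547). When both markers changed, from Lgr5-medium Ki67-high to Lgr5-high Ki67-low cells, Hnf4g differed by -0.48 and passed. These groups had its highest and lowest means, and the share of all genes passing for this pair was not counted. The means of Cdx1, Cdx2, Hnf4a and Gata6 spanned at most 0.21 over the 4 groups, and those of Klf5 spanned 0.03. Between Ki67-low and Ki67-high cells none of the 8 passed the test at either Lgr5 level. Few genes of any kind did, 0.00531% at Lgr5 high and 3.58% at Lgr5 medium.

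**Figure D1:**
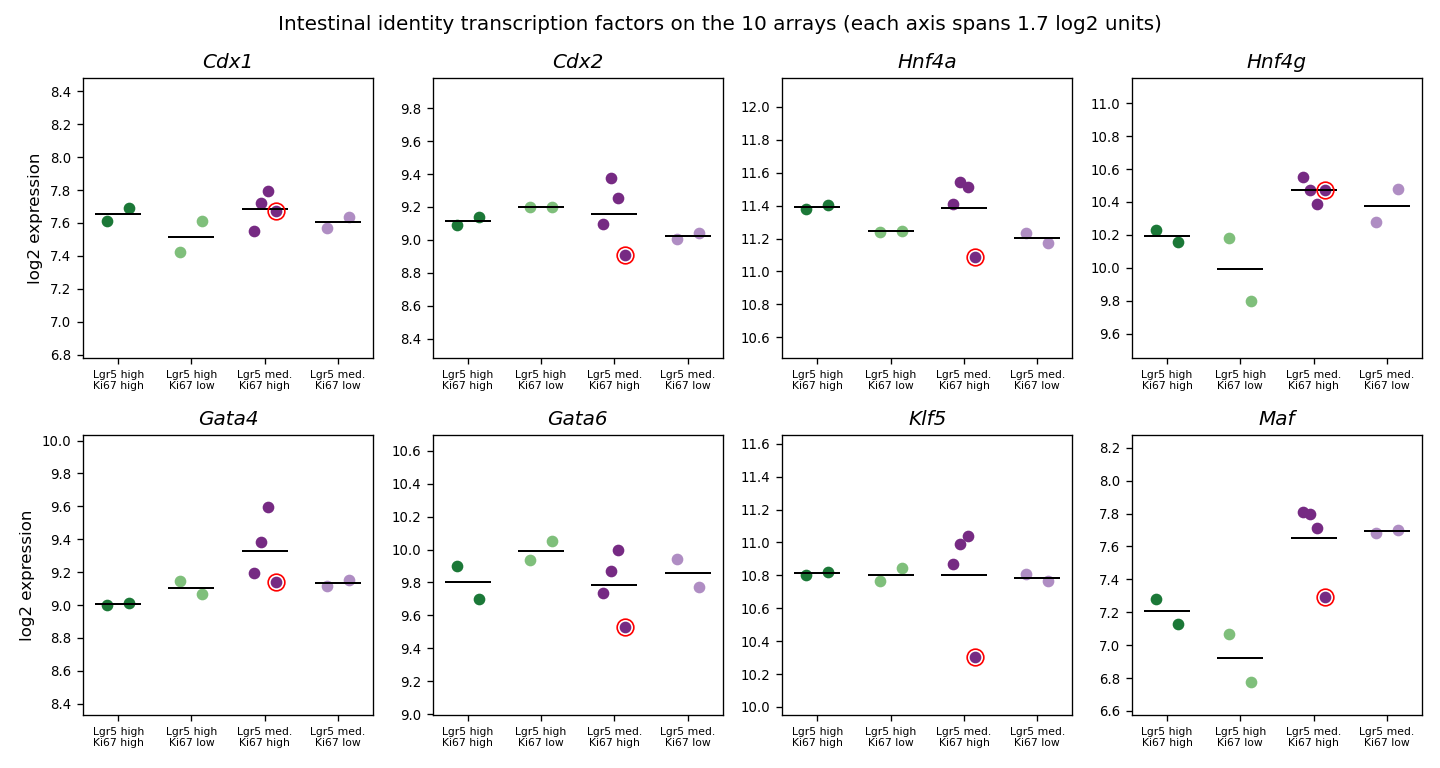
Log2 expression of the 8 factors on each of the 10 arrays, by sort group; each point is 1 array, the bar is the group mean, every vertical axis spans the same number of log2 units, and the red circle marks Lgr5-medium Ki67-high replicate 4. Maf and Hnf4g sit lower in the Lgr5-high groups, with Maf means of 7.21 and 6.92 against 7.65 and 7.69, while the Klf5 means lie between 10.79 and 10.81.

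Markers were set beside the labels. Lgr5 lay between 9.38 and 10.43 in the Lgr5-high arrays and between 7.29 and 8.76 in the Lgr5-medium arrays, without overlap. Its transcript was not level between the Ki67 fractions. The Lgr5 mean was 10.22 in Ki67-low against 9.38 in Ki67-high cells at Lgr5 high, which did not pass. At Lgr5 medium it was 8.58 against 7.39, which passed (limma adjusted p = 0.000987). The Ki67 comparisons thus also differ in Lgr5 transcript. Mki67, the gene of Ki67, lay between 10.18 and 10.19 in Lgr5-high Ki67-high cells and between 10.06 and 10.1 in their Ki67-low counterparts. In Lgr5-medium cells it lay between 9.83 and 10.27 in the Ki67-high and between 9.75 and 9.83 in the Ki67-low arrays. The transcript thus separates the Ki67 fractions by little, while the reporter reads the protein. Of 12 markers of crypt base columnar stem cells, 10 were higher in Lgr5-high cells in the averaged comparison and 0 lower. The 10 include Lgr5 itself, whose reporter set the sort. The epithelial markers Epcam and Vil1 were at 11.39 or more and at 10.44 or more on every array, and the mean of 8 stromal and endothelial markers stayed between 3.25 and 3.34. Lgr5-medium Ki67-high replicate 4 stood apart. It had the lowest array weight (0.294) and, of all 10 arrays, the largest signal for the T cell genes Gzma (7.47) and Cd3g (5.55). The mean of 11 immune markers was 5.45 on it, below the 5.71 of Lgr5-medium Ki67-low replicate 2. Ptprc, a leukocyte gene, reached 4.93 at most in its group and 5.77 in Lgr5-medium Ki67-low cells. Several results that rest on this array are given with and without it.

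Promoter sequence was at hand for 2 of the 8 genes, Cdx2 and Hnf4a. The others had none at hand, and no link between these sequences and the values across the arrays was tested. Each window holds the 250 bases before an annotated start in RefSeq, assembly GRCm38.p6, written in the direction of transcription. The Cdx2 window is chr5:147307250-147307499 on the minus strand. The table has 2 starts for Hnf4a, and the window shown belongs to the downstream one, chr2:163546905-163547154 on the plus strand, which lies inside the annotated gene. Capitals mark the matches to GTTAAT, a core of HNF1 sites, and CCACCC, a core of KLF sites, on either strand.
Cdx2: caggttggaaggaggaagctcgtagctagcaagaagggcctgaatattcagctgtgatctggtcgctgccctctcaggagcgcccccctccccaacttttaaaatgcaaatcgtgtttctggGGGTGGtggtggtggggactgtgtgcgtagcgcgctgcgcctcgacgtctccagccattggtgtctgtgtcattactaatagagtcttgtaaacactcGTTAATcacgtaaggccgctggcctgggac
Hnf4a: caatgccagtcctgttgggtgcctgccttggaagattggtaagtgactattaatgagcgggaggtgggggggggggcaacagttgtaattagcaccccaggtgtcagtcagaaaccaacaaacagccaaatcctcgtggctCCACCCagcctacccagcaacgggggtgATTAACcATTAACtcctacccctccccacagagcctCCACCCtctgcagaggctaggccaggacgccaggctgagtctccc
The Cdx2 window holds GTTAAT once, 30 bases before the start, and CCACCC once on the opposite strand, 128 bases before it. The Hnf4a window holds GTTAAT on the opposite strand at 81 and 74 bases before the start, and CCACCC at 109 and 45. Both motifs are common, in 6.43% and 28.1% of 32851 promoter windows of this length. The other 4 motifs, also searched on both strands, are in neither window. The letters AGATAA, for zinc finger factors of the Gata4 kind, stand in 9.99% of all windows. For caudal factors CATAAA was searched, which 10.8% of windows hold. Part of an HNF4 site, CAAAGT, stands in 12.6% of windows. Part of a MAF site, TGCTGA, stands in 16.1% of them. The 6 motifs share no overlapping match here, and a match is a description of letters, not of binding.

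Cdx1 and Cdx2 differed little between the populations. Cdx1 (probe set 10459153; chromosome 18, 61018862 to 61036199, GRCm38.p6) measured 7.61 and 7.69 in Lgr5-high Ki67-high cells, and in the Lgr5-high Ki67-low fraction 7.42 and 7.61. It measured 7.55, 7.72, 7.80 and 7.67 in Lgr5-medium Ki67-high cells and 7.57 and 7.64 in Lgr5-medium Ki67-low cells. The arrays of the Lgr5-high and Lgr5-medium groups overlap, and the lowest value belongs to 1 of the 2 Lgr5-high Ki67-low arrays. The means ran from 7.69 in Lgr5-medium Ki67-high cells through 7.65 and 7.60 to 7.52 in Lgr5-high Ki67-low cells, and no 2 neighbours in this order differed past the threshold. Cdx2 (10535771; chromosome 5, 147300900 to 147307249) measured 9.09 and 9.14 in Lgr5-high Ki67-high cells and 9.20 on both Lgr5-high Ki67-low arrays. It measured 9.10, 9.37, 9.26 and 8.91 in Lgr5-medium Ki67-high cells and 9.01 and 9.04 in Lgr5-medium Ki67-low cells. Its highest and its lowest value both come from the group of 4. The Lgr5-high arrays of the Ki67-low fraction lie above the Lgr5-medium ones by 0.17 on average, with a 95% confidence interval from -0.13 to 0.48 and an adjusted p of 0.65 in limma.

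Hnf4a and Hnf4g, which encode paralogous nuclear receptors, had different patterns. Hnf4a (10478389; chromosome 2, 163506811 to 163572907) measured 11.38 and 11.40 in Lgr5-high Ki67-high cells, 11.24 and 11.25 in Lgr5-high Ki67-low cells, 11.41, 11.54, 11.51 and 11.09 in Lgr5-medium Ki67-high cells, and 11.23 and 11.18 in Lgr5-medium Ki67-low cells. The Ki67-low arrays lie below all Ki67-high arrays except replicate 4 of the Lgr5-medium group. The Ki67 difference was -0.15 at Lgr5 high and -0.18 at Lgr5 medium. Confidence intervals ran from -0.46 to 0.16 and from -0.45 to 0.09, and neither difference passed. Without that replicate 4 the difference at Lgr5 medium was -0.285 ± 0.0764 (SE; limma adjusted p = 0.0801), which did not pass either. Between Lgr5 levels the averaged Hnf4a difference was 0.02 (-0.18 to 0.23), so a change beyond 1.17-fold in either direction lies outside the interval.

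Hnf4g (10490755; chromosome 3, 3508030 to 3659800) measured 10.23 and 10.16 in Lgr5-high Ki67-high cells and 10.18 and 9.80 in their Ki67-low counterparts. It measured 10.55, 10.47, 10.39 and 10.48 in Lgr5-medium Ki67-high cells and 10.28 and 10.48 in Lgr5-medium Ki67-low cells. All 4 Lgr5-high arrays are below all 6 Lgr5-medium arrays, and the lowest array, at 9.80, stands well below its partner. Its Lgr5 difference was -0.28 within the Ki67-high fraction (adjusted p = 0.288 in limma) and -0.39 within the Ki67-low fraction (0.184). Averaged over both it was -0.33 ± 0.0871 (SE; 1.26-fold lower, interval -0.53 to -0.14), with an adjusted p of 0.0547. It passed with array weights (-0.33, adjusted p = 0.0288), without the dimmest 30% of genes (adjusted p = 0.0497) and without Lgr5-high Ki67-low replicate 1 (-0.43, adjusted p = 0.02). Leaving out replicate 2 of that group, the array at 9.80, gave -0.24 on average (adjusted p = 0.205) and took the difference within the Ki67-low fraction from -0.39 to -0.20 (0.733). In the order of its means, 10.47, 10.38, 10.19 and 9.99, no 2 neighbours differed past the threshold, but the ends did. Lgr5-high Ki67-low cells lay below Lgr5-medium Ki67-high cells by -0.48 ± 0.114 (SE; limma adjusted p = 0.0409), a pair that differs in both markers. The share of all genes passing for this pair was not counted. Its fit was not repeated under other settings or without the array at 9.80.

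The GATA factors gave no call. Gata4 (10420747; chromosome 14, 63198914 to 63271712) measured 9.0 and 9.01 in Lgr5-high Ki67-high cells and 9.15 and 9.07 in their Ki67-low counterparts. It measured 9.19, 9.39, 9.60 and 9.14 in Lgr5-medium Ki67-high cells and 9.12 and 9.15 in Lgr5-medium Ki67-low cells. Among Ki67-high cells both Lgr5-high arrays lie below all 4 Lgr5-medium arrays, which themselves spread over more than the gap. That difference was -0.32 (interval -0.59 to -0.05, limma adjusted p = 0.247), and it passed only with array weights (-0.37, adjusted p = 0.0486). Among Ki67-low cells it was -0.03 (-0.34 to 0.28). Gata6 (10453857; chromosome 18, 11052510 to 11085636) measured 9.90 and 9.70 in Lgr5-high Ki67-high cells, 9.94 and 10.05 in Lgr5-high Ki67-low cells, 9.74, 9.87, 9.9999 and 9.53 in Lgr5-medium Ki67-high cells, and 9.94 and 9.77 in Lgr5-medium Ki67-low cells. The groups overlap, apart from the Lgr5-high fractions, where Ki67-low arrays lie above Ki67-high arrays by 0.19 (-0.14 to 0.53).

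Klf5 (10416777; chromosome 14, 99298691 to 99313412) was the most even of the 8 in its group means. It measured 10.80 and 10.82 in Lgr5-high Ki67-high cells, 10.76 and 10.85 in Lgr5-high Ki67-low cells, 10.87, 10.99, 11.04 and 10.30 in Lgr5-medium Ki67-high cells, and 10.81 and 10.76 in Lgr5-medium Ki67-low cells. Lgr5-medium Ki67-high replicate 4 lies below every other array, and the other 9 stay between 10.76 and 11.04. The range of the 4 group means was 0.03, against a median range of 0.23 over all genes with quartiles of 0.15 and 0.36. This evenness partly rests on that array: the difference between Lgr5-high and Lgr5-medium Ki67-high cells was 0.01 with it and -0.15 without it, and neither passed the threshold. The interval of the former, -0.38 to 0.40, still allows a 1.32-fold change.

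Maf (10581992; chromosome 8, 115703253 to 115706894) had the widest range of group means of the 8, 0.77. It measured 7.28 and 7.13 in Lgr5-high Ki67-high cells and 7.07 and 6.78 in their Ki67-low counterparts. It measured 7.81, 7.79, 7.71 and 7.29 in Lgr5-medium Ki67-high cells and 7.68 and 7.70 in Lgr5-medium Ki67-low cells. All 4 Lgr5-high arrays lie below all 6 Lgr5-medium arrays, though the highest of the former (7.28) and the lowest of the latter (7.29, replicate 4) nearly touch. Among Ki67-low cells Maf was lower in Lgr5-high cells by -0.77 ± 0.172 (SE; interval -1.15 to -0.38, limma adjusted p = 0.0457). Averaged over both Ki67 levels it was lower by -0.61 ± 0.114 (interval -0.86 to -0.35, adjusted p = 0.0144). Among Ki67-high cells the difference of -0.45 did not pass (interval -0.78 to -0.11, adjusted p = 0.195), but with replicate 4 of the Lgr5-medium Ki67-high group left out it passed at -0.57 (adjusted p = 0.0317).

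The Maf call among Ki67-low cells lay close to the threshold. It was lost when any 1 array other than Lgr5-medium Ki67-high replicate 4 was left out, with differences from -0.62 to -0.91 and adjusted p-values from 0.0604 to 0.331. The averaged call was lost in 3 fits: when Lgr5-high Ki67-high replicate 1 was left out it was -0.65 (adjusted p = 0.0515), when replicate 2 was left out -0.57 (0.08), and when Lgr5-high Ki67-low replicate 2 was left out -0.54 (0.0819). In the order of the Maf means, 7.69, 7.65, 7.21 and 6.92, no 2 neighbours differed past the threshold. The pair that differs in both markers, Lgr5-high Ki67-low against Lgr5-medium Ki67-high cells, was at -0.73 (adjusted p = 0.0238 in limma). For this pair the share of all genes was not counted, and its fit was not repeated under other settings. Whether the Lgr5 difference depended on the Ki67 level was tested by the interaction, which was -0.32 (interval -0.83 to 0.19, adjusted p = 0.804). In sorted bulk RNA, fewer cells of a type and less RNA per cell cannot be told apart.

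**Figure D2:**
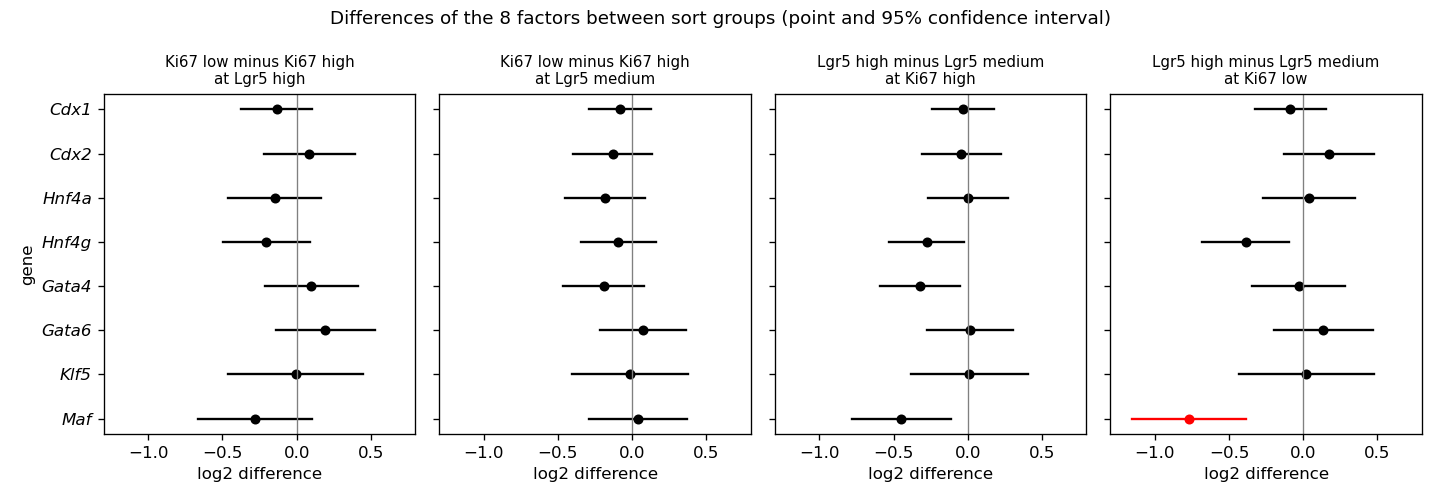
Log2 differences of the 8 factors in the 4 comparisons of sort groups; points are differences of group means, lines are 95% confidence intervals from limma, and red marks an adjusted p under 0.05. Maf among Ki67-low cells, at -0.77, is the only red point, and the lines for Maf, Hnf4g and Gata4 among Ki67-high cells lie below 0 without passing after adjustment.

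Markers of other cell types moved with the Maf difference among Ki67-low cells. In that comparison 8 of 8 goblet, 10 of 10 enteroendocrine and 8 of 8 tuft markers were called lower in Lgr5-high cells. Their medians were -1.38, -2.83 and -2.94. All 12 enterocyte markers lay below 0 and 1 was called (median -0.62, against 0.03 over all genes). The mean level of the tuft markers ran from 5.07 to 5.38 in Lgr5-high Ki67-low cells and from 7.5 to 8.17 in Lgr5-medium Ki67-low cells, that of the enteroendocrine markers from 6.49 to 6.63 and from 9.27 to 9.34, and that of the goblet markers from 9.82 to 10.05 and from 11.17 to 11.51. The mean of 11 immune markers ran from 5.05 to 5.09 and from 5.26 to 5.71, with 0 of 11 called, and Ptprc, which marks all leukocytes, lay between 4.78 and 5.77 in these 4 arrays. Between the Lgr5-medium fractions the same secretory lists were higher in Ki67-low cells (goblet 7 of 8, enteroendocrine 10 of 10, tuft 8 of 8), while Maf differed there by 0.04 with an interval from -0.29 to 0.37. The mean enterocyte level was 9.68 to 10.09 in the 4 Lgr5-high arrays and 9.75 to 10.75 in the 6 Lgr5-medium arrays. In the comparison averaged over Ki67 levels 6 of 8 goblet, 8 of 10 enteroendocrine and 7 of 8 tuft markers were lower in Lgr5-high cells, with medians of -0.59, -1.06 and -1.29. The part of these cell types in the Maf difference was not tested.

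Taking the comparisons in turn, between the Ki67 fractions of Lgr5-high cells 0 of the 8 factors passed limma's test, where 0.00531% of all genes did, and 0 were under an unadjusted p of 0.05, where 4.53% were. Their differences ran from -0.28 (Maf) to 0.19 (Gata6), with 3 above and 5 below 0, and the median absolute difference was 0.14 against 0.09 over all genes. The arrays of the 2 fractions did not overlap for 6 of the 8 factors, higher for Cdx2, Gata4 and Gata6 and lower for Cdx1, Hnf4a and Maf, which happened for 38.4% of all genes. Between the Ki67 fractions of Lgr5-medium cells 0 of 8 passed, where 3.58% of all genes did, and 0 were under an unadjusted p of 0.05, where 15.7% were. The differences ran from -0.19 (Gata4) to 0.07 (Gata6), and 0 of 8 factors had groups without overlap, against 24.5% of all genes. The widest intervals, those of Klf5, reached 0.45 and 0.39 to either side of the estimate.

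Between Lgr5 levels among Ki67-high cells 0 of 8 passed, against 0.935% of all genes. Maf, Gata4 and Hnf4g were under an unadjusted p of 0.05 (15.2% of all genes), and these 3 were also those whose groups did not overlap (27.2%). Among Ki67-low cells 1 of 8 passed, Maf, against 2.84% of all genes, with 2.18% lower in Lgr5-high cells. Maf and Hnf4g were under an unadjusted p of 0.05 (14.6% of all genes), and the arrays of the 2 groups did not overlap for 4 factors, higher for Cdx2 and Hnf4a and lower for Hnf4g and Maf (47.1% of all genes). Averaged over Ki67 levels 1 of 8 passed, again Maf, against 5.92% of all genes, with 3.52% lower, and 2 were under an unadjusted p of 0.05 (20% of all genes). Arrays of Lgr5-high and Lgr5-medium cells did not overlap for 2 of 8 factors, Maf and Hnf4g, against 7.53% of all genes. With the Ki67 difference averaged over Lgr5 levels 0 of 8 passed (1.24% of all genes) and 0 were under an unadjusted p of 0.05 (11.9%). In the interaction 0 of 8 passed (1.04%) and 0 were under an unadjusted p of 0.05 (8.08%).

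The array that stood apart bore on most of the 8 factors. Lgr5-medium Ki67-high replicate 4 gave the lowest value of all 10 arrays for Cdx2, Hnf4a, Gata6 and Klf5, and the lowest in its group for 6 factors. Its mean deviation from the group mean was -0.23 over the 8 factors, while the median deviation over all genes was 0.002. The corresponding means for replicates 2 and 3 of the group were 0.11 and 0.13. In that group the gap of the lowest array to the next, as a share of the group's range, was 0.803 for Maf, 0.768 for Klf5 and 0.71 for Hnf4a. Hnf4g did not follow: its value on that array, 10.48, was the second highest of the group.

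**Figure D3:**
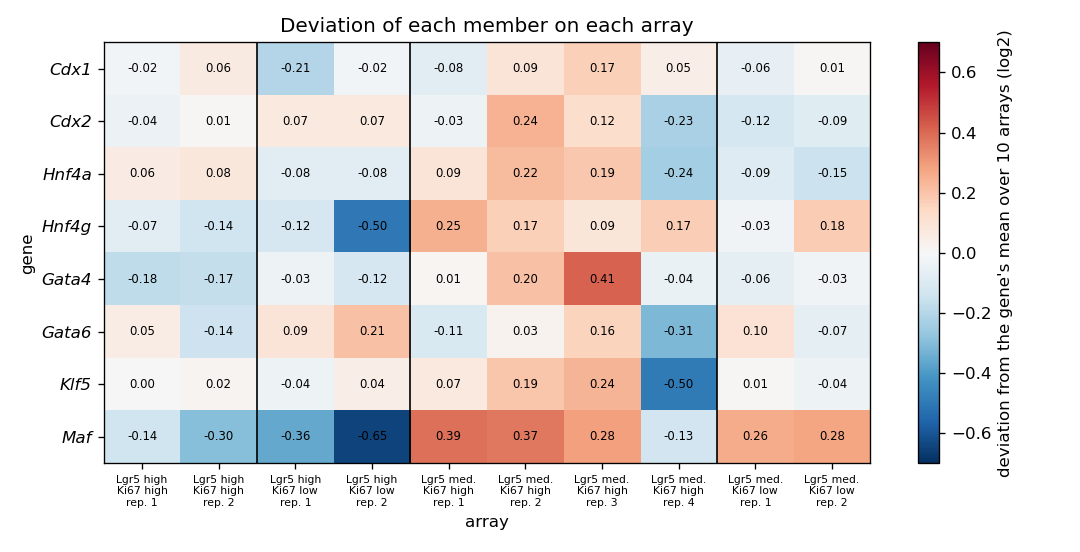
Deviation of each of the 8 factors from its own mean over the 10 arrays, in log2 units, with arrays in columns and black lines between the groups. Maf runs from -0.65 to 0.39 and separates the Lgr5 levels, whereas in the column of Lgr5-medium Ki67-high replicate 4 Klf5 is at -0.50, Gata6 at -0.31 and Hnf4g at 0.17.

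Across the 10 arrays the factors fell into patterns that can only be described, since the arrays share groups and 1 array carries much of the variation. Maf and Hnf4g correlated at Pearson's r = 0.852 (0.929 without replicate 4 of the Lgr5-medium Ki67-high group). After removal of the group means their r was 0.432. Cdx2 and Hnf4a correlated at 0.776 (0.666 without that array), Hnf4a and Klf5 at 0.818 (0.842), and Gata6 and Klf5 at 0.709, which fell to 0.263 without it. Over all 10 arrays the paralogs were less alike, with 0.144 for Hnf4a and Hnf4g, 0.227 for Cdx1 and Cdx2, and 0.256 for Gata4 and Gata6. Without that array these values were 0.370, 0.402 and 0.277. After removal of the group means they were -0.140, 0.394 and 0.742. Some pairs of unrelated factors were lower still, such as Hnf4g and Gata6 at -0.553 over the 10 arrays.

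Among genes with a mean above the median of all genes, those most like Maf over the 10 arrays were Pklr, a pyruvate kinase gene (r = 0.981), Hkdc1, a hexokinase-like gene (0.979), and Mical2, which encodes an actin-oxidising enzyme (0.97). Since these genes were chosen for their likeness on the same arrays, their Lgr5 differences follow from the choice and are given without a test. Among Ki67-low cells they were -0.46 for Pklr, -0.73 for Hkdc1 and -0.72 for Mical2, and in the averaged comparison -0.40, -0.62 and -0.58. Those most like Hnf4g were Cyp4f40, a cytochrome P450 gene (0.968), Pank3, a pantothenate kinase gene (0.965), and H2-T3, a non-classical class I gene (0.964). In the averaged comparison Cyp4f40 was at -0.62, Pank3 at -0.36 and H2-T3 at -0.29, likewise without a test. The nearest genes of Hnf4a were Ccdc61, Tln2 and Hif1an (0.988, 0.945 and 0.937), and of Cdx2 Frrs1, Bud13 and Scpep1 (0.939, 0.935 and 0.925). Those of Gata4 were Tomm40, Tex261 and Adam10 (0.963 to 0.969), of Gata6 Xpo6, Amotl2 and Myorg (0.952 to 0.957), of Klf5 Ppl, Arhgap32 and Atg2b (0.972 to 0.973), and of Cdx1 Setd3, Zfp661 and C2cd2 (0.866 to 0.878). For Klf5 all 3 values dropped to between 0.877 and 0.89 without the array that stood apart.

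**Figure D4:**
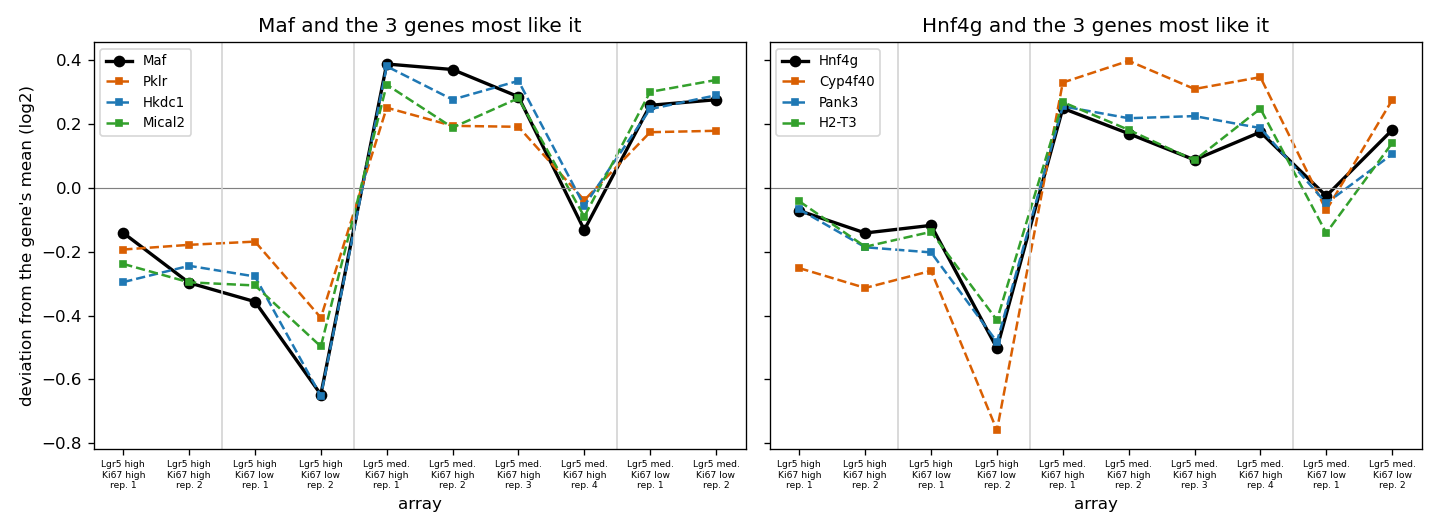
Maf and Hnf4g (black) with the 3 genes most like each, as deviations from each gene's mean over the 10 arrays in log2 units; arrays are on the horizontal axis and grey lines separate the groups. The likest gene of Maf, Pklr, has r = 0.981 with it, and both dip on Lgr5-medium Ki67-high replicate 4.

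Relatives from the same gene families were mostly uncalled. Of 24 measured relatives of the caudal, GATA, Kruppel-like and MAF families, 1 was lower and 0 higher in Lgr5-high cells in the averaged comparison, with a median of 0.003 against 0.02 over all genes. The 1 gene was Klf4, which is tied to goblet cell differentiation and cell cycle exit (-0.58 ± 0.148, SE; adjusted p = 0.0489). A count of 1 of 24 is near the share of all genes, of which 3.52% were called lower and 5.92% in either direction. Between the Lgr5-medium fractions, where 3.58% of all genes passed, 2 of 24 relatives rose in Ki67-low cells. They were Klf4 by 0.85 (limma adjusted p = 0.0419) and Klf12 by 0.99 (0.0294). Klf12, a repressor of the family, was dim, at 4.06 in Ki67-low and 3.07 in Ki67-high cells. The median level of all genes was 5.06. The median difference was 0.11 for the 24 relatives and -0.02 for all genes. In the same comparison Klf5 differed by -0.01, with an interval from -0.41 to 0.38. Goblet markers rose there too, 7 of 8 (median 1.37). The count of 2 relatives fell to 0 or 1 in the fits that left out 1 array, except without Lgr5-medium Ki67-low replicate 2, where it was 3. The averaged count of 1 became 2 without Lgr5-medium Ki67-high replicate 4 or Lgr5-medium Ki67-low replicate 2 and 0 in the other 8 such fits.

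Of 30 other transcription factors of the gut epithelium, 1 rose and 3 fell in Lgr5-high cells in the averaged comparison (median 0.02). There 5.92% of all genes passed in either direction and 3.52% were called lower. Ehf, an ETS factor, was higher by 0.44 (limma adjusted p = 0.00913). The lower ones were Creb3l3, a membrane-bound factor of lipid metabolism (-0.78, 0.0121), Esrra, an orphan nuclear receptor of mitochondrial genes (-0.43, 0.0223), and Nr1h4, the bile acid receptor (-0.40, 0.0296). The Maf difference of -0.61 and the uncalled Hnf4g difference of -0.33 in this comparison run the same way as these 3. Without Lgr5-high Ki67-high replicates 1 or 2, Lgr5-high Ki67-low replicate 2 or Lgr5-medium Ki67-low replicate 1 the lower count was 0 or 1, and without Lgr5-medium Ki67-high replicate 4 it was 6. Foxa3, a forkhead factor tied to goblet cells, rose by 1.24 between the Lgr5-medium fractions (adjusted p = 0.00302), although within the Ki67-high group replicate 4 stood far above the other 3.

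Genes known to be bound or activated by CDX or HNF4 factors in enterocytes lay lower in Lgr5-high cells. Of the CDX and HNF4 factors themselves none was called in the averaged comparison; Hnf4g was at -0.33 (limma adjusted p = 0.0547), and Cdx1, Cdx2 and Hnf4a were between -0.06 and 0.06. In the averaged comparison the median of 35 measured genes was -0.40 against 0.02 over all genes, and 32 of 35 lay below 0. While 3.52% of all genes were called lower, 8 of the 35 were called lower and 0 higher. They included Cdhr5, a cadherin of the brush border (-0.61 ± 0.0721, SE; limma adjusted p = 0.00231), Alpi, intestinal alkaline phosphatase (-0.69 ± 0.126; 0.013), Guca2a, the gene of the peptide guanylin (-0.91 ± 0.171; 0.0146), and Myo1a, a brush border myosin (-0.39 ± 0.0739; 0.0153). Among Ki67-low cells 4 of 35 were lower (median -0.71) and among Ki67-high cells 0 (median -0.25). The averaged count was 1 or 2 without Lgr5-high Ki67-high replicates 1 or 2 or Lgr5-high Ki67-low replicate 2. It was 5 with Lgr5-medium Ki67-high replicate 2 left out and 4 with Lgr5-medium Ki67-low replicate 2 left out. The count among Ki67-low cells was 2 without either Lgr5-high Ki67-high array, Lgr5-high Ki67-low replicate 2 or Lgr5-medium Ki67-low replicate 1, and 7 without Lgr5-medium Ki67-high replicate 4. Enterocyte markers as a whole lay lower as well (12 of 12 below 0, 2 called, median -0.41); this list shares genes with the list of targets.

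Between the Lgr5-medium fractions 4 of the 35 targets rose in Ki67-low cells (median 0.26), Guca2a by 1.82, its relative Guca2b by 0.96, Espn, an actin-bundling gene of microvilli, by 0.75, and Cdhr5 by 0.47, with limma adjusted p-values from 0.0014 to 0.0365. Among the 4 Lgr5-medium Ki67-high arrays Cdhr5 was highest on replicate 1, at 9.73 against 9.55 to 9.57 on the others. Leaving out replicate 2 of these 4 arrays, or Lgr5-medium Ki67-low replicate 1, gave a count of 1. Leaving out replicate 3, or Lgr5-medium Ki67-low replicate 2, gave 2. In this comparison on all arrays goblet markers (7 of 8, median 1.37) and enteroendocrine markers (10 of 10, median 2.84) rose too. So did tuft markers (8 of 8, median 3.18). Of 12 enterocyte markers 0 were called, and 11 lay above 0 (median 0.22). The part of these cell types in the rise of the targets was not tested. Over the same arrays Hnf4a and Cdx2 differed by -0.18 and -0.13, and neither passed. Without Lgr5-medium Ki67-high replicate 4 they differed by -0.285 and -0.217, again without passing (limma adjusted p = 0.0801 and 0.268).

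Genes of the gut regions that these factors pattern were also listed. The upper small intestinal list overlaps the list of targets, and both have the same gene at their median in the averaged Lgr5 comparison. In that comparison 5.92% of all genes passed in either direction and 3.52% were called lower. Of 15 genes of the upper small intestine, where GATA4 acts, 4 were lower and 0 higher in Lgr5-high cells in the averaged comparison (median -0.40): the iron exporter Slc40a1 (-0.92), the alcohol dehydrogenase Adh6a (-0.74), the retinol-binding protein Rbp2 (-0.47) and the metal transporter Slc11a2 (-0.30). Of 13 ileal genes 4 were lower and 0 higher (median -0.28), namely Bcl2l15 (-0.89), the bile acid transporter subunit Slc51a (-0.75), Nts, a hormone gene of enteroendocrine cells (-0.63), and Nr1h4. Nr1h4 was already counted among the lower transcription factors. Nts was dim, at 3.53 in Lgr5-high and 4.16 in Lgr5-medium cells, and Bcl2l15 was at 4.50 and 5.39. The median level of all genes was 5.06. Of the enteroendocrine markers 8 of 10 were lower in the same comparison (median -1.06), and their part in the ileal count was not tested. Limma adjusted p-values of these genes ran from 0.0119 to 0.0348. Both counts fell to 0, 1 or 2 without Lgr5-high Ki67-high replicates 1 or 2, Lgr5-high Ki67-low replicate 2 or Lgr5-medium Ki67-low replicate 2. Dropping Lgr5-medium Ki67-high replicate 3 left an upper intestinal count of 2, and dropping replicate 2 of that group left an ileal count of 2.

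Of 13 colon genes 1 was higher, the water channel Aqp4 (0.60, limma adjusted p = 0.0033), and 1 lower, Mgat4c (-0.38, 0.0436). Without Lgr5-high Ki67-low replicate 1 or Lgr5-medium Ki67-high replicate 4 the lower count was 2, and without any 1 of the other arrays but Lgr5-medium Ki67-high replicate 3 it was 0. Of 21 stomach genes 1 was higher, Gkn3 (1.4 ± 0.178, SE; limma adjusted p = 0.0031), a gastrokine gene, and 0 lower, with a median of 0.01. A count of 1 of 21 is near the 5.92% over all genes. The mean of the stomach list lay between 3.79 and 4.04 on every array, below the median of all genes (5.06). Gkn3 lay far above that list mean at both Lgr5 levels, at 8.79 in Lgr5-high and 7.40 in Lgr5-medium cells. The higher count was 2 when either Lgr5-high Ki67-low replicate 1 or Lgr5-medium Ki67-high replicate 4 was dropped. Cdx2, whose loss is known to turn on stomach genes, was at 0.06 in the same comparison (interval -0.14 to 0.27). A link between Cdx2 and Gkn3 was not tested.

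**Figure D5:**
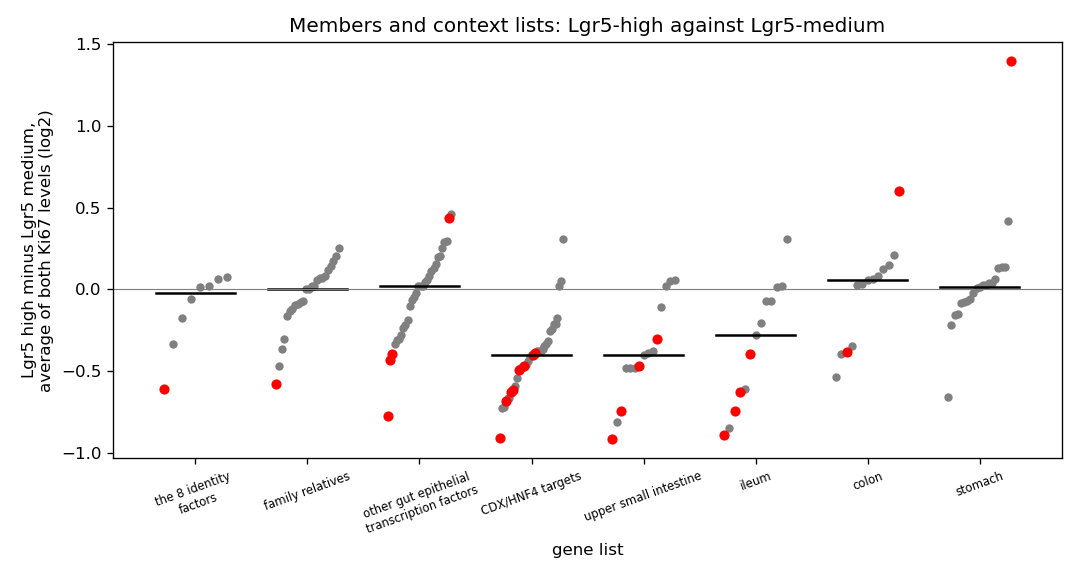
Log2 difference of Lgr5-high minus Lgr5-medium cells, averaged over both Ki67 levels, for the 8 factors and 7 gene lists; each point is a gene, red marks an adjusted p under 0.05 in limma, and bars are list medians. The lists of CDX/HNF4 targets and of the upper small intestine have medians of -0.40, and the 2 lists of transcription factors lie around 0. The target and upper small intestine lists overlap, with the same gene at their median.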

How the data were processed

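Total RNA of the 10 sorted samples was measured with the Affymetrix Mouse Gene ST array, 1 sample each. The table deposited by the authors covers 35556 probe sets with values from 1.16 to 13.8, read as log2 because of this range. MAS5 and GCOS stand in the submitters' processing notes, but arrays of this kind have no mismatch probes for MAS5 to use, and it is uncertain which program made the values. How background was handled, probes summarised and arrays normalized is not given in the sources used here. Values were used as deposited.

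Of the probe sets, 21218 have 1 symbol, 1881 several, and 12457 are unnamed here. A gene was represented by its probe set with the highest mean. limma 3.58.1 (R 4.3.3) fitted 4 group means to 10 arrays (6 residual degrees of freedom) with eBayes. Adjustment was by Benjamini-Hochberg across 18820 genes, threshold 0.05. The fit was tested on simulated data. A difference of 1 is 2-fold; intervals are 95%.

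The 8 factors, the lists and the tests were chosen with earlier results of these data known. All 8 were named; the pairs differing in both markers were added to order the group means; lists gave up to 4 called genes with the smallest p-values per comparison, and likeness the 3 genes with the highest r. Alternatives were 2 scalings, array weights, the 2 groups alone, a replicate block, other probe set and filter rules, and leaving out each array. The number of arrays limits the precision. All 8 Entrez numbers matched RefSeq, assembly GRCm38.p6.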

Additional observations from a re-analysis of the deposited data

Results flagged for a closer look

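Among the genes named beside the 8 factors, 2 had 1 array far from the others of the Lgr5-medium Ki67-high group. Foxa3 was at 7.66 on replicate 4 and between 7.06 and 7.11 on the other 3 arrays, a gap of 0.912 of the group's range. Cdhr5 was at 9.73 on replicate 1 and between 9.55 and 9.57 on the others, a gap of 0.855. Chance marks about 1 in 20 groups this way. None of the 8 factors was marked; the largest gap was 0.803, for Maf on replicate 4.

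For 3 genes of the target and ileum lists the Ki67 difference was not the same at both Lgr5 levels, by limma's interaction test: Guca2a (-2.16, adjusted p = 0.0141), Nts (-2.06, adjusted p = 0.00735) and Pyy (-0.962, adjusted p = 0.0205), each higher in Ki67-low cells at Lgr5 medium. Markers of secretory cells passed the same test, 7 of 8 for goblet, 10 of 10 for enteroendocrine and 6 of 8 for tuft cells, with medians of -1.73, -3.33 and -3.29. None of the 8 factors passed this test.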

How the results depend on the processing

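The 40 differences of the 8 factors (5 comparisons) were recomputed under 19 alternative settings, which gave 720 values. In 50 of them, from 15 differences, the sign turned; the largest such value was 0.154 in size and 0 of the 50 passed the threshold. The Lgr5 differences of Maf and Hnf4g stayed below 0 in every setting.

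Of the 8 factors, 2 passed between Lgr5 levels among Ki67-high cells with array weights (Gata4 and Maf) and 1 without Lgr5-medium Ki67-high replicate 4 (Maf). Among Ki67-low cells 0 passed with arrays centred on their medians (Maf adjusted p = 0.0614), with only the 2 groups compared (0.0541) and with every row of the table (0.125). In the averaged Lgr5 comparison 2 passed with array weights and without the dimmest 30% of genes (Hnf4g and Maf). Leaving out 1 array at a time gave 0 to 1, 0 to 1 and 0 to 2 in these 3 comparisons.

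Signs turned as follows. Centring gave Klf5 0.00716 between Ki67 fractions at Lgr5 high, Gata6 -0.057 and Maf -0.0914 at Lgr5 medium, Hnf4a -0.0713, Gata6 -0.0599 and Klf5 -0.0639 between Lgr5 levels among Ki67-high cells, and Gata4 0.0395 among Ki67-low cells. Quantile normalization gave Klf5 0.0306 between the Lgr5-medium fractions, Cdx1 0.000368, Cdx2 0.00936 and Hnf4a -0.00718 among Ki67-high cells, and Klf5 -0.00808 among Ki67-low cells. Array weights gave Maf -0.0456 between the Lgr5-medium fractions, Hnf4a -0.0771, Gata6 -0.0487 and Klf5 -0.111 among Ki67-high cells, and Hnf4a -0.0187 and Klf5 -0.0459 in the averaged Lgr5 comparison. With 1 array left out, the ranges that crossed 0 were, between the Lgr5-medium fractions, Gata6 -0.0115 to 0.158, Hnf4g -0.196 to 0.0106, Klf5 -0.181 to 0.0641 and Maf -0.0806 to 0.0924, and at Lgr5 high Klf5 -0.047 to 0.0336. Among Ki67-high cells they were Cdx1 -0.0783 to 0.00624, Cdx2 -0.128 to 0.0279, Gata6 -0.0829 to 0.113, Hnf4a -0.0966 to 0.0556 and Klf5 -0.154 to 0.0903. Among Ki67-low cells they were Cdx1 -0.18 to 0.00592, Gata4 -0.0714 to 0.0118 and Klf5 -0.0208 to 0.0598, and in the averaged comparison Hnf4a -0.0284 to 0.0477 and Klf5 -0.0675 to 0.0549. The cause was not tested.

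The replicate numbers do not pair the samples: same-numbered arrays of different groups had correlations of their deviations from -0.303 to 0.0131. Differently numbered arrays reached 0.303, between the Lgr5-high and Lgr5-medium Ki67-low groups. In groups of 2 arrays the deviations mirror each other, so the 2 signs carry the same fact. Whether arrays of different groups shared a preparation was not tested. A fit with a replicate block left the counts of the 8 factors past the threshold at 0, 0, 0, 1, 0, 1 and 0, and those over all genes moved from 1, 674, 176, 534, 233, 1115 and 196 to 0, 352, 6, 502, 163, 747 and 128 (the 4 group comparisons, the averaged Ki67 and Lgr5 comparisons and the interaction). Under this block the sign turned for Maf (-0.112) between the Lgr5-medium fractions, for Cdx1 (0.0153), Hnf4a (-0.0852), Gata6 (-0.00475) and Klf5 (-0.119) among Ki67-high cells, and for Hnf4a (-0.0227) and Klf5 (-0.0496) in the averaged comparison. Crossing the numbers among Ki67-low cells, an alternative chosen after seeing the data, gave 1 factor and 732 genes.

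Counts over all genes moved by more than 1.5 times elsewhere too. Centring shifted the median of all genes between the Lgr5-medium fractions from -0.019 to -0.149 and turned 499 higher and 175 lower genes into 417 and 767; among Ki67-high cells it turned 98 and 78 into 81 and 120, and among Ki67-low cells 124 and 410 into 253 and 328. The interaction's median moved from 0.023 to 0.168, and the averaged Ki67 split from 168 and 65 to 140 and 101. Array weights called 1135, 803, 530, 1975 and 299 genes in the last 5 comparisons, the 2 groups alone 0, 373, 107 and 274 in the 4 group comparisons, and all 35556 probe sets 0, 479, 8, 318, 104, 628 and 124. With 1 array left out the counts ran from 0 to 4, 264 to 779, 0 to 327, 198 to 921, 30 to 381, 359 to 1708 and 79 to 292.

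The number of arrays limits the precision, with 2 per group in 3 of 4 groups. Background values were not used here, so no signal over background was computed.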
